A study of Gallus gallus with 6 samples.

Results

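In the leg muscle of Xinghua chickens, 118 of 16781 genes stood at least 4-fold higher on embryonic day 16 (E16) than on embryonic day 11 (E11) and then kept nearly the same level up to 1 day after hatching (D1). A gene was taken as a member of this group when the log2 ratio of its FPKM plus 1 was 2 or more between E11 and E16 and lay between -0.5 and 0.5 between E16 and D1. FPKM is the number of sequenced fragments scaled to the length of the transcript and to the size of the library. The members were thus chosen by these measured values, and the size of their difference between E11 and E16 and their level course afterwards are given here as a description and not as a finding. Of the members, 105 carried a gene symbol and 13 did not.

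Each of the 3 stages was sampled by 2 libraries of leg muscle RNA from which ribosomal RNA had been depleted. All birds are labelled as female Xinghua chickens and no treatment is named, so that age is the only labelled difference between the 3 groups. Whether dissection or sequencing also differed between the groups was not tested. The values deposited by the authors hold 1 FPKM per transcript, stage and pair of stages, in which both libraries of a stage are merged. No spread between libraries can therefore be given for any value below, no difference has a replicate check, and no test between stages was made. The number of reads behind a single FPKM is not known. The words risen, level and lower refer only to the log2 thresholds named above.

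Chicken leg muscle passes through these stages from young myotubes to fibres that already bear the weight of the hatchling. Myoblasts fuse and assemble sarcomeres, and the sarcoplasmic reticulum and the transverse tubules are laid down around them. The dystrophin complex ties the fibre to its surrounding matrix, and motor axons are wrapped by Schwann cells. Fat cells appear in and around the muscle during the same period, and whole muscle also holds vessels, connective tissue and blood.

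The rule picked out a minority of the genes that stood higher at E16. A log2 ratio of 2 or more between E11 and E16 was found for 399 genes, which was 2.38% of all 16781 genes and 4.25% of the 9378 genes with an FPKM of 3 or more at E16, the lowest level at which such a ratio can be reached. Of these 399 genes, 118 were level (29.6%), 171 were higher again at D1 (42.9%) and 110 were lower at D1 (27.6%). Among the 9378 genes, 60.0% were level between E16 and D1 by the same band. The members made up 0.703% of all genes and 1.26% of the 9378 genes. Because the rule used both contrasts, nothing is read from these shares.

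**Figure D1:**
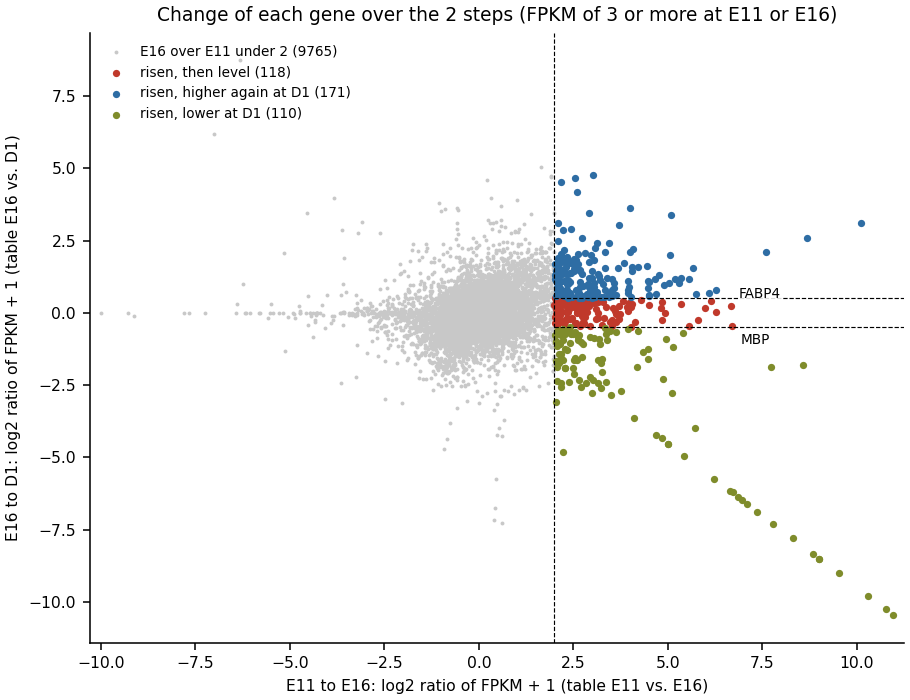
Each point is 1 gene with an FPKM of 3 or more at E11 or E16, placed by its log2 ratio of FPKM plus 1 between E11 and E16 (horizontal axis) and between E16 and D1 (vertical axis), with dashed lines at the thresholds of the rule. The 118 members (red) fill the band between -0.5 and 0.5 to the right of 2, with 171 genes above it (blue) and 110 below it (green).

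The 3 courses differed more in where they started than in their level at E16. The median FPKM at E11 was 5.03 for the members, 5.26 for the genes that were higher again at D1 and 0.830 for those that were lower at D1. At E16 the medians were 52.4, 55.6 and 34.5, and the median log2 ratios between E11 and E16 were 2.75, 2.72 and 2.97. The median start of the members thus lay near that of the genes that went on to higher levels. All 3 groups were chosen by a first step of 2 or more, so nothing is read from how alike their first steps were. The second step sets these groups apart by the rule itself. The median log2 ratio of that second step was 0.08 for the members, 1.18 for the genes higher again at D1 and -1.65 for those lower at D1.

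Among themselves, the members spanned a wide range of levels. At E11, 23 of the 118 had an FPKM under 1, 54 had one from 1 to under 10, and 41 had one of 10 or more. At E16, 14 had an FPKM under 10, 66 had one from 10 to under 100 and 38 had one of 100 or more, with 6003 for TNNC2 as the highest. The log2 ratio between E11 and E16 lay between 2 and 3 for 74 members, between 3 and 4 for 26, and at 4 or more for 18. From E16 to D1, 73 members were higher and 45 lower, but this split depended on the scaling. With ratios centred on the median of all genes it was 62 to 56, and with upper-quartile scaling, which moved the ratios from E16 to D1 by -0.13 and those from E11 to E16 by -0.10 on the log2 scale, it was 55 to 63. The level at D1 was 70.2% to 142% of that at E16, with a median of 106%.

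The members nearest the thresholds show how little sets some of them apart. CAPZB, the beta subunit of the protein that caps the barbed ends of actin filaments, entered with a log2 ratio of 2.00 from E11 to E16. The small heat shock protein HSPB8 entered with 2.00 and the matrix protein dermatopontin (DPT) with 2.02. Just below were the potassium channel KCNJ5 at 1.99, RASL12 at 1.97 and desmin (DES), the muscle intermediate filament, at 1.95. At the upper edge of the level band, HSPB8 lay inside at 0.50, and PRKAA2, a catalytic subunit of the AMP-activated kinase, lay outside at 0.51. At the lower edge ASB12, GLDN and MBP lay inside at -0.48, -0.48 and -0.47, while POPDC3 and GAMT lay outside at -0.50 and -0.54. A gene such as POPDC3, with an FPKM of 8.07 at E11 and 46.8 at E16, therefore followed nearly the same course as the members although the rule did not count it.

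**Figure D2:**
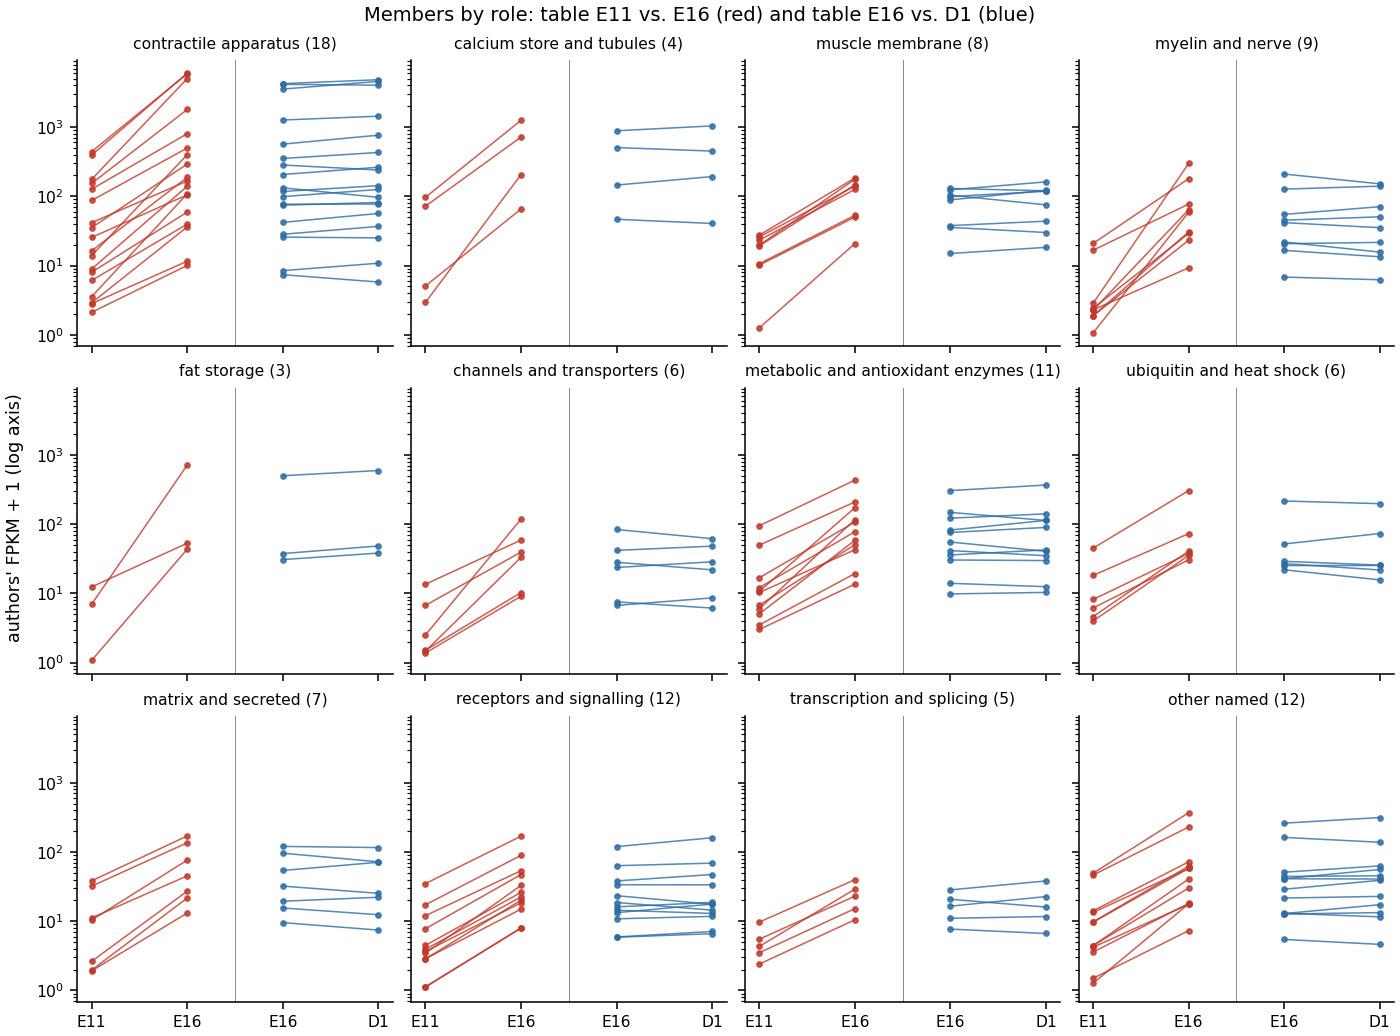
Each line is 1 member, drawn from its FPKM plus 1 on a log axis at E11 and E16 in the table E11 vs. E16 (red) and at E16 and D1 in the table E16 vs. D1 (blue), with 1 panel for each of 12 groups by role. The second step of every panel is close to flat because the rule chose the members so. The panels differ mainly in height. The highest value at E16 is 6003 FPKM in the contractile apparatus and 38.8 FPKM among the regulators of transcription and splicing. The 13 members with no symbol and 4 small RNAs are not drawn.

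The most abundant members built the contractile apparatus, to which 18 named members were assigned. TNNC2, the calcium-binding subunit of fast troponin, had an FPKM of 393 at E11 and 6003 at E16 in the table E11 vs. E16, and of 4233 at E16 and 4825 at D1 in the table E16 vs. D1. TNNI2, the inhibitory subunit of fast troponin, stood at 174 and 5014 in the first table and at 3536 and 4562 in the second. That both of these fast troponin subunits had most of their level at D1 already at E16 follows from the rule that chose them. The 2 tables were scaled apart, so that the E16 values of the second were a median of 0.705 times those of the first for the same libraries, and levels are compared only within a table. The log2 ratios of TNNC2 were 3.93 and 0.19, and those of TNNI2 were 4.84 and 0.37.

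MYL1, the alkali light chain of fast myosin, stood at 442 and 5870 at E11 and E16, and at 4139 and 4026 at E16 and D1. Of the 6 most abundant members it came closest to a flat second step, with a log2 ratio of -0.04 after one of 3.73. TPM1, an alpha tropomyosin that lies along the thin filament, stood at 152 and 1793, then at 1264 and 1434. In their shares of the E16 level that remained at D1, MYL1 had 97.3% and TNNC2 114%.

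The M band and the thick filament were represented by MYOM1, which crosslinks myosin filaments, and by MYH7B, a myosin heavy chain of slow type. MYOM1 had an FPKM of 86.0 at E11 and 498 at E16, followed by 351 and 428. MYH7B had 34.3 and 291, followed by 205 and 262. NEXN, an actin-binding protein of the Z disc, had 126 and 802, followed by 566 and 762. All 3 were somewhat higher at D1, with log2 ratios of 0.29, 0.35 and 0.43.

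Members that regulate filament length and signal from the Z disc began lower. LMOD3, which starts actin filaments in the sarcomere, stood at 15.3 at E11 and 187 at E16, and then at 132 and 95.6. CSRP3, the muscle LIM protein, stood at 12.9 and 398, and then at 282 and 239. Both were lower at D1 than at E16, with log2 ratios of -0.46 and -0.24. CAPN3, a muscle protease bound to titin, stood at 2.54 and 108, then at 75.8 and 76.4, the flattest second step of the contractile group at 0.01. The rest of the group included TXLNB, LRRC39, MYO18B, KY, PPP1R12B, SMTNL1 and CAPZB, with an FPKM of 9.03 to 165 at E16.

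Read against the list of sarcomere and Z disc genes, of which 56 were measured, the portion of level genes was close to that among all risen genes. On this list 31 genes had a log2 ratio of 2 or more from E11 to E16, beside 2.38% of all genes. Of the 31, 8 were level, 20 were higher again at D1 and 3 were lower, beside 29.6%, 42.9% and 27.6% of all risen genes. The genes that were higher again included skeletal actin ACTA1 (232 to 15838, then 11163 to 18026) and TNNT3, the third subunit of fast troponin (381 to 9813, then 6920 to 10813). Their second steps were 0.69 and 0.64, so that the subunits of fast troponin fell on both sides of the threshold of 0.5 with close values. The median log2 ratio of the whole list was 2.53 from E11 to E16 and 0.47 from E16 to D1, against -0.01 and 0.01 over the 11936 genes with an FPKM of 1 or more at E11 or E16. The summed FPKM of the list was 5439 at E11 and 62338 at E16. In bulk tissue, more muscle fibres and more of these transcripts per fibre cannot be told apart, and this holds for every group below.

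**Figure D3:**
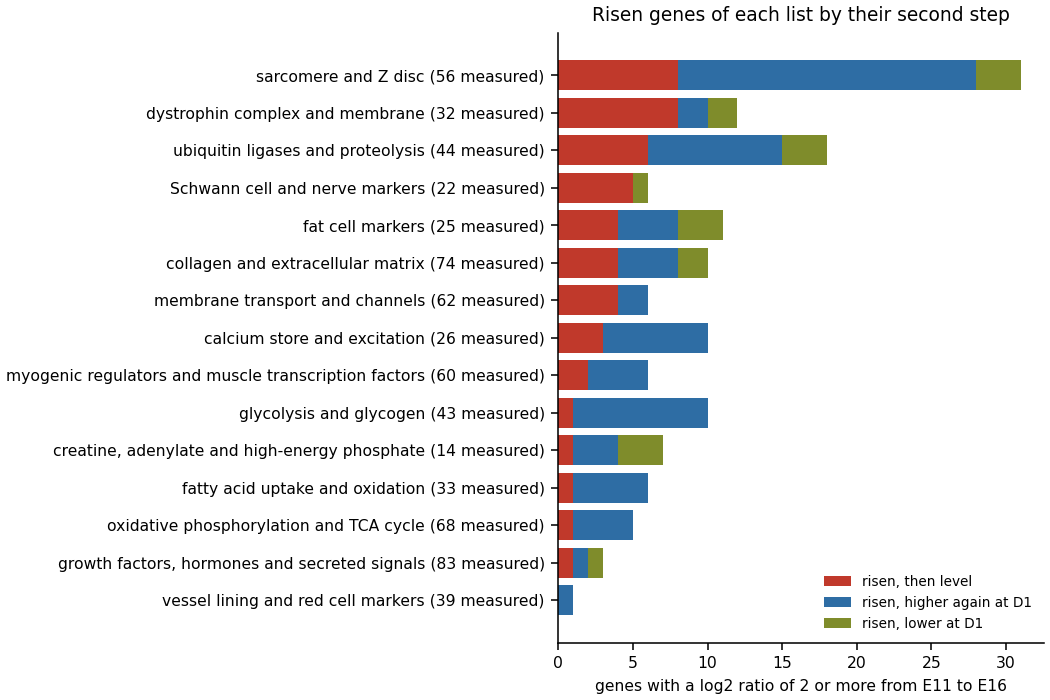
Bars count, for each list of genes with at least 1 such gene, those with a log2 ratio of 2 or more from E11 to E16, split into genes that were then level (red), higher again at D1 (blue) and lower at D1 (green). In the sarcomere list 8 of 31 genes were level and in the dystrophin list 8 of 12, while of 10 glycolysis genes 1 was level and 9 were higher again.

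Around the myofibrils, 4 members belonged to the calcium store and the tubules. CASQ2, which binds calcium inside the sarcoplasmic reticulum, had an FPKM of 95.7 at E11 and 1251 at E16, then 882 and 1038. SYPL2 (mitsugumin 29), a membrane protein of the junction between tubule and reticulum, had 1.94 and 205, then 144 and 192. Its log2 ratio was 6.13. RYR3, a calcium release channel, had 4.07 and 64.6, then 45.6 and 39.5. BIN1, which bends membranes into tubules, had 71.0 and 716, then 505 and 449.

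Of the 26 measured genes of calcium storage and excitation, 10 had risen by E16, beside 2.38% of all genes. Of these 10, 3 were level, 7 were higher again at D1 and none was lower. The level share was thus near the 29.6% of all risen genes. Triadin (TRDN), which anchors calsequestrin to the release channel, went from 4.74 to 233 and then from 164 to 384. Junctophilin 1 (JPH1), which holds tubule and reticulum together, went from 19.7 to 123 and then from 87.0 to 309.7. Within the same junction, CASQ2 and SYPL2 were therefore level while TRDN and JPH1 had second steps of 1.22 and 1.82.

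Of 32 genes of the dystrophin complex and the muscle membrane measured, 12 had risen by E16, beside 2.38% of all genes. Of these 12, 8 were level, 2 were higher again and 2 were lower at D1. The level share was 29.6% among all risen genes and 60.0% among the 9378 genes. DMD encodes dystrophin, the long protein that links cortical actin to the complex. It stood at 26.5 at E11 and 183 at E16, then at 129 and 119. SGCB and SGCD, sarcoglycans of the complex, stood at 22.3 and 24.9 at E11 and at 125 and 139 at E16. Sarcospan (SSPN) stood at 18.2 and 146. The 4 had log2 ratios of 2.74, 2.43, 2.44 and 2.93 from E11 to E16, a narrow range from similar starts.

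Their second steps differed more, with log2 ratios of -0.11 for DMD, 0.46 for SGCB, 0.25 for SGCD and -0.46 for SSPN. In level, DMD, SGCB and SGCD stood close together at D1, at 119, 121 and 117, and SSPN stood at 74.2. Other subunits of the complex had smaller first steps. DAG1, the dystroglycan that binds laminin, had an FPKM of 40.4 at E11 and 96.4 at E16 with a log2 ratio of 1.24. SGCE, a sarcoglycan also found outside muscle, stood at 27.4 and 21.4, and UTRN, the dystrophin relative utrophin, at 48.4 and 57.3. DTNA (dystrobrevin) was higher again at D1, with a second step of 0.66. The median log2 ratio of the list was 1.59 from E11 to E16 and 0.02 from E16 to D1. It was taken over the 30 of the 32 genes with an FPKM of 1 or more at E11 or E16.

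Membrane proteins beyond the complex were also among the members. CAV1, a coat protein of caveolae, stood at 18.7 and 175, then at 123 and 161. The muscle caveolin CAV3, which was no member, stood at 7.33 and 184, then at 129 and 53.6, so that the caveolins parted after E16 with second steps of 0.38 and -1.26. The Popeye proteins, which bind cyclic AMP at the muscle membrane, all had risen by E16. BVES went from 9.64 to 52.1 and POPDC2 from 9.15 to 49.0, with second steps of 0.21 and -0.24, and POPDC3 lay just outside the band. CTNNA3, an alpha catenin of cell contacts in muscle, had 0.259 at E11 and 19.7 at E16, then 13.9 and 17.3.

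On the scale of FPKM plus 1, the largest ratio of the members was that of a myelin gene, while by plain fold change members with an FPKM under 0.1 at E11, such as PMP2, THRSP and SNORA8, ranked above it. MBP, the myelin basic protein that compacts the myelin sheath, had an FPKM of 1.86 at E11 and 297 at E16, a log2 ratio of 6.71, and then 209 and 150. In the table E11 vs. D1 it had 1.54 at E11 and 176 at D1. PMP2, a lipid-binding protein of peripheral myelin, went from 0.0657 to 58.0 and then from 40.7 to 34.2. PMP22, which is present in peripheral myelin and in other tissues, began higher, at 19.8, and reached 179, then 126 and 139.

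Further members are known from Schwann cells or neurons. CGT, the symbol used for ceramide galactosyltransferase, which makes the main glycolipids of myelin, went from 1.42 to 28.1 and then from 19.7 to 20.6. GLDN (gliomedin), a Schwann cell protein that gathers sodium channels at nodes of Ranvier, went from 0.875 to 29.7 and then from 20.8 to 14.6. LINGO1 and SYNPR, known from neurons, were also in this group of 9 and had an FPKM of 76.2 and 8.28 at E16.

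The list of Schwann cell and nerve markers did not move as 1 group. Of its 22 measured genes, 6 had risen by E16, beside 2.38% of all genes. Of these 6, 5 were level, beside 29.6% level among all risen genes. The level genes included MBP, PMP2, GLDN and PMP22. Of these, MBP and GLDN no longer met the rule with median-centred ratios or with upper-quartile scaling. Not every myelin gene was among the risen, since the myelin enzyme CNP had a log2 ratio of 1.62, and GJB1 and MAL, a gap junction and a membrane protein of myelin, had ratios of -1.14 and -0.79. Of the Schwann cell lineage genes that do not build myelin, SOX10, S100B and NGFR also had not risen by the threshold. SOX10, the transcription factor that marks the lineage, stood at 3.56 and 7.24 with a log2 ratio of 0.85, and S100B at 0.329 and 1.08. NGFR, the low-affinity receptor for nerve growth factor, stood lower at E16, at 9.79 and 3.83. Of 8 neuronal genes, 6 stood lower at E16, where the median log2 ratio over 11936 genes was -0.01. NEFH and SNAP25 had ratios of 0.20 and 0.37. Both stayed below an FPKM of 1, as did STMN2, which was among the 6. Neurofilament NEFL stood at 6.43 and 2.44, NEFM at 5.06 and listed at 0, the growth cone protein GAP43 at 5.33 and 1.76, and the neuronal tubulin TUBB3 at 2.73 and 0.210.

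The summed FPKM of these 22 markers was 81.1 at E11 and 692 at E16, then 486 and 420 at E16 and D1. MBP and PMP22 were the main terms at E16 and D1. The median over the list was 0.57 from E11 to E16 and -0.40 from E16 to D1. It was taken over the 18 markers with an FPKM of 1 or more at E11 or E16. Whole leg muscle holds nerve branches, and how far a different share of nerve in the samples had a part in these ratios was not tested.

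**Figure D4:**
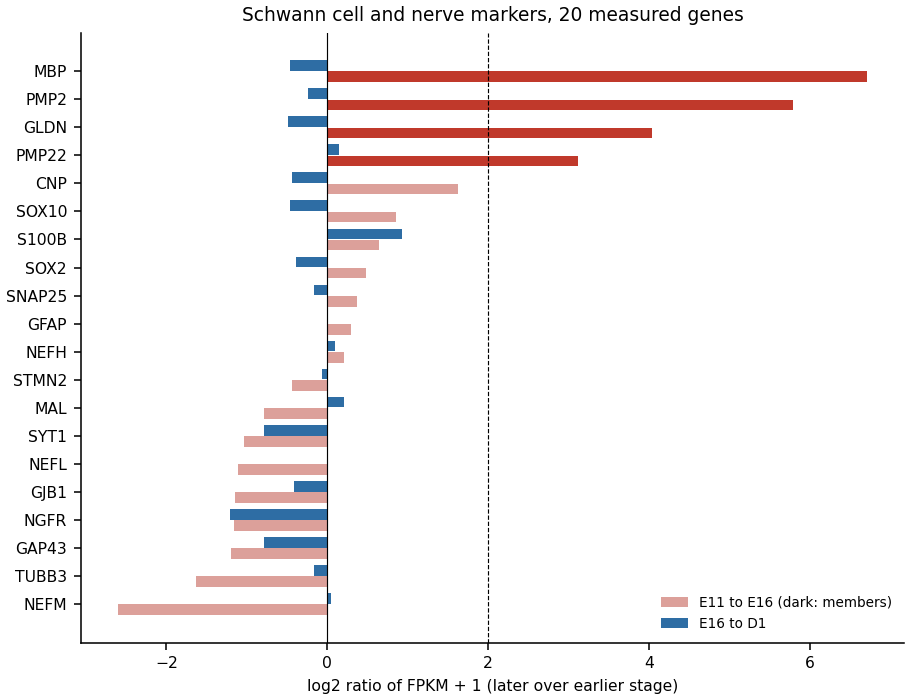
Bars give the log2 ratio of FPKM plus 1 from E11 to E16 (red, dark for members) and from E16 to D1 (blue) for 20 of the 22 measured genes of the Schwann cell and nerve list, with a dashed line at 2. The bars reach from 6.71 (MBP) to -2.60 (NEFM), and 9 genes lie below 0, among them 6 neuronal genes and the myelin genes GJB1 and MAL.

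Among the members were 3 genes of fat storage, with log2 ratios from E11 to E16 of 6.68, 5.33 and 2.10. FABP4, the fatty acid carrier of fat cells, had an FPKM of 5.97 at E11 and 712 at E16, then 499 and 594. THRSP, a nuclear protein of lipid synthesis, went from 0.0784 to 42.5 and then from 29.8 to 37.2. LPL, the lipase that frees fatty acids from circulating lipoproteins, went from 11.4 to 52.0 and then from 36.6 to 47.4. CAV1, described above, is also abundant in fat cells and in vessel lining.

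Of the 25 fat cell markers measured, 11 had risen by E16, beside 2.38% of all genes. Of these 11, 4 were level, 4 were higher again and 3 were lower at D1. Among all risen genes, 29.6% were level. The median over the 24 markers with an FPKM of 1 or more at E11 or E16 was 1.89 from E11 to E16. Enzymes of fatty acid synthesis on the list differed, with ratios of -0.94 for the desaturase SCD, -0.77 for FASN and -0.10 for ELOVL6. ACACA, of the same pathway, had a ratio of 1.37 and a second step of 3.44. PLIN1, the coat protein of fat droplets, stood at 0.196 and 63.6, then at 44.6 and 70.6, and the hormone ADIPOQ at 1.43 and 52.2, then at 36.8 and 114. RBP7, a retinol-binding protein, was lower at D1, at 352 and 216 after 11.0 and 502. The summed FPKM of the list was 285 at E11 and 2127 at E16, then 1493 and 2987. The part of fat cell number in these values was not tested.

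The remaining marker lists held no members, which for lists of this size is little different from the 0.703% of all genes that were members and the 2.38% that had risen. None of the 39 leukocyte markers, 28 cartilage and bone markers, 32 epidermis and kidney markers and 14 genes of the neuromuscular junction had risen by E16 by the threshold, and of 39 vessel and red cell markers 1 had, the carbonic anhydrase CA2, which was higher again at D1. Epidermis and kidney markers had a median log2 ratio of -3.23 from E11 to E16, against -0.01 over 11936 genes, but AQP3 had 1.43. Both medians cover genes with an FPKM of 1 or more at E11 or E16, which were 29 of these 32 markers. The summed FPKM of the 32 was 492 at E11 and 34.4 at E16, with 5 listed at 0 at E16. Cartilage and bone markers summed to 678 and 384. Markers of these tissues thus took a larger share of the E11 values than of the E16 values, and their part in the ratios of the members was not tested.

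Among channels and transporters, ATP1B4 stood out by its ratio. It belongs by sequence to the beta subunits of the sodium pump and in mammals lies in the nuclear envelope of muscle. Its FPKM was 1.51 at E11 and 117 at E16, then 82.7 and 60.7. AQP4, the water channel of fast muscle fibres, had 0.466 and 32.2, then 22.7 and 27.6. P2RX5, a channel opened by extracellular ATP, had 5.72 and 38.5, then 27.2 and 20.9. The glutamine carrier SLC38A3, the sodium and proton exchanger SLC9A2 and ABCC9, the regulatory subunit of an ATP-sensitive potassium channel, were the other 3. Of 62 genes on the transport list, 6 had risen by E16, beside 2.38% of all genes. Of these 6, 4 were level, beside 29.6% of all risen genes.

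The lists of energy supply held 1 level gene each, where 29.6% of all risen genes were level. PPP1R3A, which brings a phosphatase to glycogen, was the 1 level gene of 10 risen on the glycolysis and glycogen list and went from 4.98 to 115 and then from 81.2 to 112, but did not meet the rule once its transcripts were summed. AMPD1, the muscle AMP deaminase, went from 15.8 to 106 and then from 74.9 to 88.7. It was the 1 level gene of 7 risen on the list of creatine, adenylate and high-energy phosphate. Of the others there, 3 were higher again at D1 and 3 were lower. LPL was the 1 level gene of 6 risen on the list of fatty acid uptake and oxidation. On the list of oxidative phosphorylation and the TCA cycle, 5 of 68 genes had risen, beside 2.38% of all genes. The 1 level gene there was the coactivator PPARGC1A, which is a regulator and no enzyme.

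The other risen genes of the glycolysis, fatty acid and respiratory lists were higher again at D1, as were 42.9% of all risen genes. On the glycolysis and glycogen list this held for 9 of 10, among them PKM, pyruvate kinase, at 21.0 and 199.7, then at 141 and 344. On the fatty acid list it held for 5 of 6, among them FABP3, the fatty acid carrier of muscle, at 44.9 and 773, then at 545 and 2497. The medians of the second step were 1.05 for the glycolysis list, 1.08 for the fatty acid list and 1.49 for the respiratory list. They were -0.06 for the creatine and adenylate list and 0.02 for the dystrophin list. They cover the genes of each list with an FPKM of 1 or more at E11 or E16.

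Other enzymes among the members were HACD1, an enzyme of very long fatty acid synthesis that myoblasts need for fusion in mice (9.69 to 172, then 121 to 140), and the antioxidant enzymes GPX3, GSTK1 and GSTT1. GPX3, a secreted glutathione peroxidase, stood at 93.9 and 431, then at 304 and 366. The locus to which the deposited table assigns GPX3 spans several other genes, as does that of USP28. Loci of other members also overlap those of other genes, among them GIPR with P4HB, MYH7B with TRPC4AP and P2RX5 with EMC6. PSPH, the last enzyme of serine synthesis, and MTHFD2, a mitochondrial enzyme of folate metabolism, went from 11.1 to 76.7 and from 5.77 to 49.5.

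Protein turnover and chaperones supplied 6 members. The small heat shock proteins HSPB1 and HSPB8 stood at 44.0 and 17.2 at E11 and at 304 and 72.0 at E16. HSPB1 was then at 215 and 197, and HSPB8 at 50.8 and 72.2. ASB2, a substrate adaptor of a ubiquitin ligase that directs filamins to degradation, went from 3.63 to 39.8 and then from 28.1 to 24.6. KLHL30, of the kelch family, went from 2.996 to 34.4 and stayed at 24.2 and 24.3. On the list of ubiquitin ligases and proteolysis, 18 of 44 genes had risen, beside 2.38% of all genes. Of these 18, 6 were level, beside 29.6% of all risen genes. Of the other risen genes on this list, 9 were higher again and 3 were lower. Members on it were CAPN3, ASB2, USP28, KLHL30, ASB12 and KY, the last a protease-like protein of the Z disc.

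Matrix and secreted proteins supplied 7 members. COL15A1, a collagen of basement membranes around muscle and vessels, had an FPKM of 31.1 at E11 and 135 at E16, then 95.1 and 71.2. HTRA1, a secreted protease, had 37.3 and 169, then 119 and 115. MATN2, a matrilin of the matrix network, had 9.41 and 75.2, then 53.1 and 70.0. The growth factor EGF went from 1.64 to 26.2 and then from 18.5 to 21.2. It was the 1 level gene among 3 risen of 83 growth factors and secreted signals. That risen share is little different from the 2.38% of all genes. COL28A1, a collagen found around nerves in mice, went from 0.920 to 12.1 and then from 8.56 to 6.45. Of 74 genes on the matrix list, 10 had risen, beside 2.38% of all genes. Of these 10, 4 were level, 4 were higher again at D1 and 2 were lower. Among all risen genes, 29.6% were level. MGP, the matrix Gla protein, had a second step of 3.03, and COL6A2 and COL6A3, chains of the microfibrils around fibres, had -0.64 and -0.71.

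Receptors and signalling proteins, 12 members, ranged from 0.120 to 34.0 FPKM at E11 with a median of 2.80. GIPR, the receptor for the gut hormone GIP, stood at 0.131 and 6.95, then at 4.87 and 5.61, and PROKR2, a prokineticin receptor, at 0.120 and 7.01, then at 4.92 and 6.11. The somatostatin receptor SS2R went from 1.85 to 19.2. The phosphatases DUSP10, DUSP26 and DUSP28 went from 11.0, 1.88 and 2.66 to 52.7, 13.97 and 17.5, with second steps of 0.31, 0.12 and 0.41. CD9, a tetraspanin that acts in membrane fusion and is also present in Schwann cells, went from 2.46 to 31.9 and then from 22.4 to 16.6.

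Regulators of transcription and splicing were few and of modest level. PPARGC1A, the coactivator that drives mitochondrial genes, went from 4.50 to 22.0 and then from 15.5 to 21.7. MYOCD (myocardin), a coactivator of serum response factor known from heart and smooth muscle, went from 1.40 to 9.49. RBM20, a splicing factor of titin, went from 2.51 to 14.2 and then from 10.02 to 10.7. The homeodomain-like protein HOPX and the acetyltransferase KAT2B completed the 5. Of 60 myogenic regulators and muscle transcription factors measured, 6 had risen by E16, beside 2.38% of all genes. Of these 6, 2 were level, PPARGC1A and MYOCD. Among all risen genes, 29.6% were level.

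The third table, E11 vs. D1, rests on the same libraries, so its ratios follow from the other 2 steps and lend no separate support. In it, 108 of the 118 members (91.5%) had a log2 ratio of 2 or more, against 5.01% of all genes and 8.15% of the 9378 genes with an FPKM of 3 or more at E16. The median ratio was 2.76 with a range of 1.64 to 6.87. The highest was that of FABP4, which had an FPKM of 4.95 at E11 and 696 at D1. The 10 members below 2 were ASB12, ANKRD33B, KY, USP28, MYOCD, COL15A1, GSTK1, ACSS2, SYNPR and DPT, and DPT was the lowest with 8.44 at E11 and 28.5 at D1.

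For genes with several Ensembl transcripts in the tables the rule took the most abundant row, and the other rows did not always share its course. The second row of MYL1 stood at 41.2 and 3030, then at 2135 and 3762. Its log2 ratios were 6.17 and 0.82, so that of the MYL1 transcripts the more abundant was level and the other was still higher at D1. The 3 rows of TPM1 were all level, with first steps of 3.55, 3.14 and 4.43. The second row of BIN1 was a minor transcript at 12.1 and 33.6, then 23.7 and 5.46, with a second step of -1.94.

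For CAPZB the rows crossed. The row used stood at 40.6 and 165, while the other stood at 63.6 and 33.6, a log2 ratio of -0.90. The second row of PPP1R3A, at 2.39 and 72.5, then 51.1 and 106, had a second step of 1.04. When the rows of each gene were summed, CAPZB, PPP1R3A and SNORD12 no longer met the rule, and the other 115 members did. Rows of the same gene overlap, so their separate values are less certain than those of genes with 1 row.

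**Figure D5:**
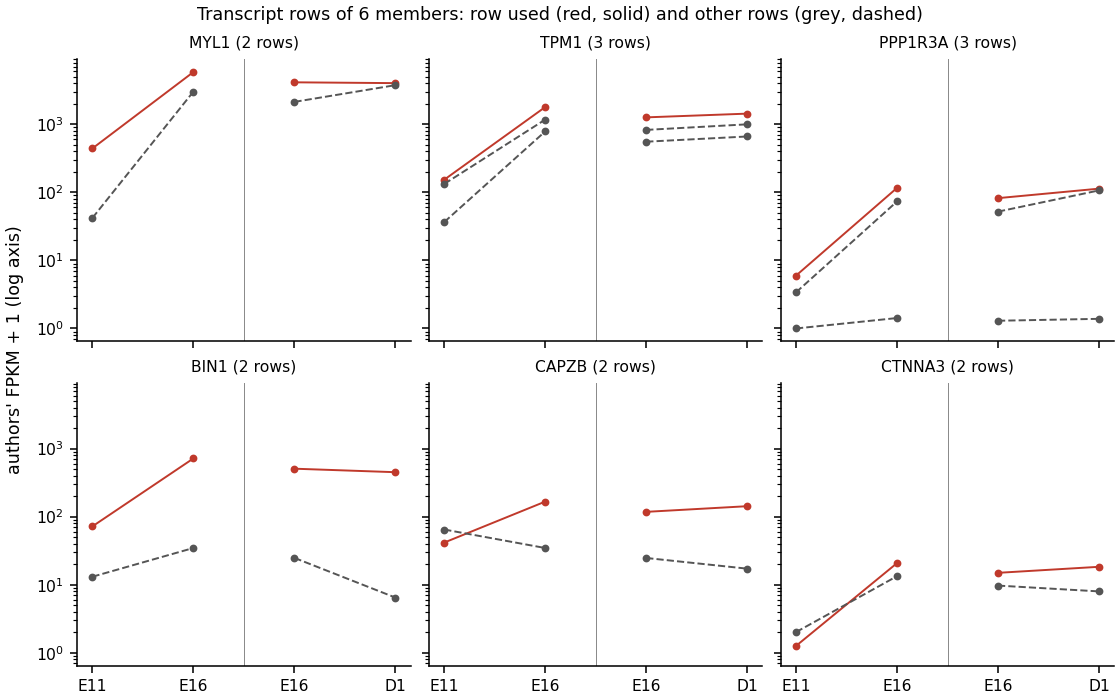
FPKM plus 1 on a log axis for each transcript row of 6 members at E11 and E16 (left of the grey line) and at E16 and D1 (right of it), with the row used by the rule in solid red and the others dashed. The rows of TPM1 run together, those of CAPZB cross between E11 and E16, and the minor row of BIN1 drops to 5.46 at D1.

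4 members were small RNAs, whose values are uncertain in libraries of long RNA and where they lie within the locus of another gene. SNORA8, a small nucleolar RNA in the locus of TAF1D, was at 0.0519 and 80.6, then at 57.0 and 58.9, while TAF1D itself was at 13.1 and 11.6. The microRNA gene gga-mir-1749, in the locus of the cell cycle phosphatase CDC25A, was listed at 0 at E11 and at 62.4 at E16, then at 44.3 and 49.9. SNORA41, in the locus of EEF1B2, was listed at 0 and at 6.28. SNORD12 was at 308 and 1267, but of its 3 other rows 1 was at 58.6 at E11 and listed at 0 at E16 and the rest were listed at 0.

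The members were spread over the genome, with a few close pairs. On the galGal4 build, 20 of 118 lay on chromosome 1 (16.9%, against 13.7% of the 9378 genes), 14 on chromosome 2 (11.9%, against 9.03%), 12 on chromosome 4 (10.2%, against 7.38%) and 3 on the sex chromosome Z (2.54%, against 4.81%). Their loci ran from 0.092 kb to 699 kb, the longest being that of DMD at chr1:114233667-114932830. Within 100 kb of each other lay 5 pairs of neighbouring members. PMP2 and FABP4, which encode lipid-binding proteins of the same family, lay 5.37 kb apart at chr2:121215806-121220355 and chr2:121225723-121228944, and FABP5 of that family, on the far side of PMP2, went from 37.2 to 352 and then from 248 to 544. The myelin carrier and the fat cell carrier had first steps of 5.79 and 6.68 and second steps of -0.24 and 0.25.

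ATP1B4 and TMEM255A lay 1.64 kb apart at chr4:16402010-16409172 and chr4:16410815-16432452, with second steps of -0.44 and 0.44. LAMP2, the neighbour on the other side of ATP1B4, stood at 39.6 and 57.1 with a first step of 0.52. MYH7B and ACSS2 were separated by GSS, which stood at 10.4 and 6.09. The remaining pairs were CENPV with P2RX5 and LRRC14B with COL15A1. In each of these neighbourhoods, then, at least 1 gene beside the pair did not share its course.

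The same rule was also applied to the lncRNAs. Of 1995 lncRNA rows, 29 had a log2 ratio of 2 or more from E11 to E16 and 8 were then level. These were 0.401% of all lncRNA rows, against 0.703% of genes, and 27.6% of the risen lncRNA rows, against 29.6% of the risen genes. Every lncRNA row was counted, while for genes only the most abundant row was, so the units of these shares differ. Of the 8, lnc00015826 lay 1.59 kb from GLDN and went from 0.180 to 4.801, then from 3.37 to 2.38. The second step of lnc00015826, -0.37, stood beside that of -0.48 for GLDN. At the same distance from GLDN, lnc00015818 and lnc00015824 had first steps of 1.22 and 1.77 and did not meet the rule. On chromosome 1, lnc00005738 lay 178 kb from DMD and went from 2.86 to 22.2, then from 15.6 to 13.0, with a second step of -0.24. The other 6 had no member within 300 kb.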

How the data were processed

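RNA of 6 leg muscle samples, 2 for each of 3 stages, was depleted of ribosomal RNA and sequenced. The submitters' notes name Trim Galore, Bowtie, TopHat, Cufflinks and the build galGal4, and the methods add Cuffdiff. Each of the 3 tables deposited by the authors covers a pair of stages (D1 is written P1) and gives 1 FPKM per transcript and stage, merged over both libraries and scaled within each pair. These FPKM alone were used. The tables also hold Cuffdiff's log2 fold changes, test statistics, p-values and q-values, which were not used. The 16 Ensembl rows that the tables mark HIDATA in any pair were left out, and of several rows of a gene that with the highest mean was kept, which left 16781 genes from 17942 rows.

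Ratios are log2((later FPKM + 1)/(earlier FPKM + 1)), which understates the change of low genes. No filter on low values was applied. A log2 ratio of 2 or more is called risen and one within 0.5 of 0 level. All samples were grouped by the stage in their labels. The members and the 19 gene lists were chosen with earlier results of these data known, and the 12 groups by role were assigned after the values were seen. Genes were named by rule where they were among the 15 members with the largest ratio from E11 to E16 at an FPKM of 10 or more at E16, among the 15 with the highest FPKM at E16, among the 3 most abundant or the 2 with the largest ratio of a list, among all members of a list of 5 or fewer, or among the 3 nearest each threshold. Other genes were chosen after their values were seen. Some genes that the rule names are not reported here. Of 105 symbols, 99 were found in the RefSeq gene table. Positions are those of the deposited loci, counted from 1. Alternatives were other pseudocounts, thresholds, scalings, a filter and summed rows. Calculations used Python 3.11.15 with pandas 2.3.3, numpy 2.4.6 and scipy 1.17.1, and plots matplotlib 3.10.9.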

Additional observations from a re-analysis of the deposited data

How the results depend on the processing

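The count of 118 members depended mostly on the thresholds. It was 195 with a first step of 1.5 or more, 44 with 3 or more, 59 with a level band of 0.25, 211 with one of 1, and 75 with a pseudocount of 5. It lay between 112 and 165 with a pseudocount of 0.1, an FPKM of 5 or more at E16, summed rows, median centring, upper-quartile scaling and one scale for all tables, the last chosen after seeing the data. A similar count did not mean the same genes, since upper-quartile scaling shared 95 and median centring 109 of the 118. In all 11 alternatives 22 members were kept, and 63 were kept in all but the first step of 3 and the band of 0.25. HSPB8 was lost in 7, GLDN in 4 and MBP in 3. The share of risen genes that were level, 29.6%, was 14.8% with the band of 0.25 and 52.9% with that of 1. The median log2 ratio from E11 to D1, 2.76, was 2.19 with a first step of 1.5 and 3.81 with one of 3, and the share of members past 4-fold, 91.5%, was 61.5% and 100%. The other alternatives gave 25.7% to 32.8% for the level share, 2.504 to 2.90 for the median and 85.3% to 93.2% for the share past 4-fold, which follows in large part from the steps the rule fixed. No paired analysis was possible because each deposited FPKM merges both libraries of a stage, and leaving out a replicate could not be run for the same reason. The tables give no read counts behind each FPKM, so the precision of low values such as those of the members under an FPKM of 1 at E11 cannot be stated.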
